A study of Mus musculus with 4 samples.

Results

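The genes of voltage-gated and related ion channels for potassium, calcium and sodium were followed in mouse embryonic fibroblasts. They were chosen by symbol alone. A probe was taken if its gene symbol in the platform annotation begins with Kcn (Kcnq1ot1 left out), with Cacn, or with Scn and a number. This gave 164 of 25697 probes, which stand for 108 of the 16593 named genes. Of these genes 80 are potassium channel genes (119 probes), 20 calcium channel genes (36 probes) and 8 sodium channel genes (9 probes), and 37 genes have several probes.

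The fibroblasts came from p19ARF-/- mice, which lack a product of the Cdkn2a locus that stabilises p53, and all 4 arrays share this deletion. The cells were stably transduced with wild-type NSD2, a methyltransferase that dimethylates histone H3 at lysine 36 (2 arrays), or with a control vector (2 arrays). They were grown in medium with serum and given no further treatment, and total RNA was hybridised to Illumina bead arrays. The design text speaks of triplicates, 2 arrays per group were analysed here, and no label says whether these were separate cultures. The p-values below therefore rest only on the spread between these arrays, pooled in part over all probes. This spread may be technical. The labels also name a tissue, blood, that does not describe fibroblasts. Of 11 measured fibroblast markers 9 were above background on all 4 arrays, against 1 of 8 blood markers (Cd14), 1 of 13 neuron markers (Map2), 1 of 9 skeletal muscle markers (Des), 1 of 6 heart markers (Nppb), 1 of 6 glia markers (Mbp), 1 of 7 endothelial markers (Flt1), 4 of 7 smooth muscle markers and 4 of 6 epithelial markers. No probe was named for the transduced gene Nsd2 (Whsc1), so its level was not analysed here. The 75th percentile of the signal was 345 and 491 on the NSD2 arrays and 357 and 490 on the control vector arrays, and between 42.3% and 45.9% of all probes exceeded the background of an array.

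Ion channels are membrane proteins that let ions pass down their gradient, and many are opened by voltage, a ligand, stretch or pH. Potassium channels set the resting membrane potential, voltage-gated calcium channels admit calcium as a signal, and voltage-gated sodium channels carry the upstroke of the action potential. A pore-forming subunit often works with auxiliary subunits that alter its gating or carry it to the membrane. Fibroblasts are not excitable cells, yet they hold a negative resting potential and use calcium signals in growth and migration.

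Most channel probes could not be told from background. A probe was called above background on an array if its signal exceeded the upper 5% point of that array's background, estimated by mirroring the lower side of the signal distribution about its mode. By this measure 134 of the 164 channel probes (81.7%) were above background on no array, against 12262 of the 25533 other probes (48.0%). On all 4 arrays 11 channel probes (6.71%) were above it, against 9768 other probes (38.3%). For counts by gene, each gene was given by its probe with the highest mean. So counted, 8 of 108 channel genes (7.41%) were above background on all 4 arrays, and 85 (78.7%) on none. Over all named genes these shares were 41.6% and 45.3%. A probe below background has no measured level here, which does not show that the gene is silent.

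In every family, set by gene symbol and not by tested function, most probes lay at background. Of the 42 probes of voltage-gated pore-forming potassium channels 35 were above background on no array, as were 17 of 19 for the inward rectifiers (Kcnj), 17 of 22 for the 2-pore-domain channels (Kcnk), 6 of 8 for the channels gated by calcium or sodium and their relatives, and 21 of 28 for auxiliary potassium channel subunits. Among calcium channels 13 of 16 pore-forming probes and 17 of 20 auxiliary probes were on no array. Of the sodium channel probes 8 of 9 were, and the remaining probe, of Scn10a, a sodium channel of sensory neurons, was above background on 1 array. Genes with every probe below background on all 4 arrays included Kcnma1, the pore of the large-conductance calcium-activated potassium channel, Kcnn4, the intermediate-conductance one, Kcnj2, a classical inward rectifier, and Cacna1c, the main L-type calcium channel of heart and smooth muscle, for which 4 probes were measured. These 4 were picked as familiar channels, not by a rule.

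**Figure D1:**
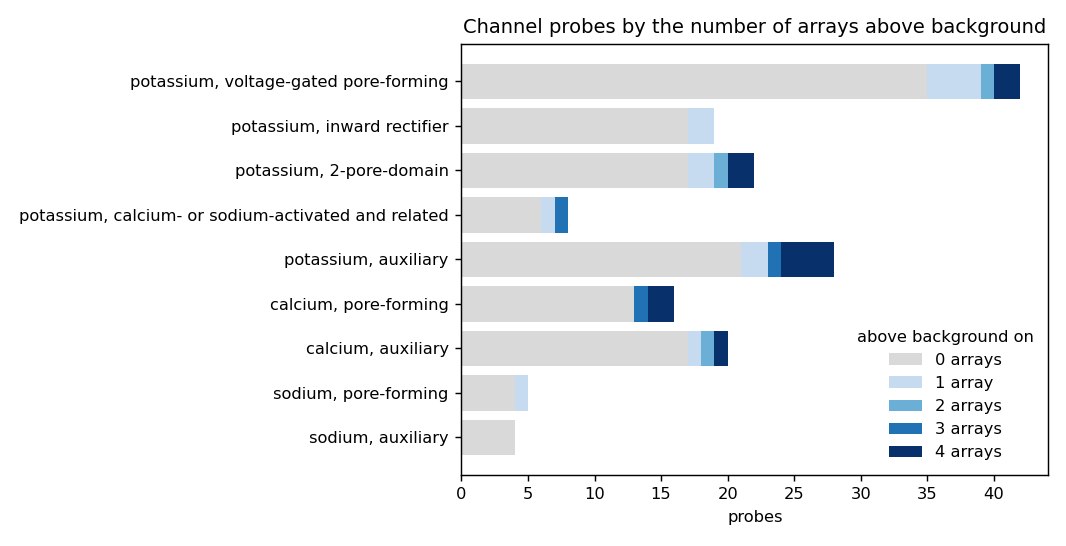
Number of channel probes (horizontal axis) per channel family (rows), split by the number of arrays on which the probe was above background. Probes above background on no array (grey) make up most of every family, 134 of 164 in all, and those above it on all 4 arrays number 11.

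The array NSD2 2 gave the most channel probes above background. The counts were 13 and 26 probes on NSD2 arrays 1 and 2, and 17 and 16 on control vector arrays 1 and 2. Of the 13 channel probes above background on a single array, 9 were so on NSD2 2 and 4 on control vector 1. Array NSD2 2 also had the most probes of all kinds above background, 11807, against 10865 on NSD2 1 and 11182 and 11235 on the control vector arrays. The part of this difference between arrays in the channel counts was not tested.

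In the comparison of NSD2 with control vector, 0 of 164 channel probes passed (limma, Benjamini-Hochberg adjusted p under 0.05 over all 25697 probes). Over all probes 4 passed, a share of 0.0156%. At an unadjusted limma p under 0.05 there were 10 channel probes (6.10%), 4 higher and 6 lower with NSD2, beside 3.91% of all probes, 2.15% higher and 1.76% lower. Of these 10 probes 5 were above background on no array, so their differences compare signals that were not told from background. All 164 differences had a median of 0.0089 on the log2 scale, with 85 higher and 79 lower means, beside a median of -0.0026 over all probes. The differences were smaller than 0.5 in either direction for 158 of the 164 probes. A typical standard error was 0.21. The limma fit draws these errors towards the spread over all probes, so a ± value is not a gene's own spread alone. Groups of 2 against 2 allow 3 splits, and an exact test of 1 probe cannot reach a two-sided p below 0.333.

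**Figure D2:**
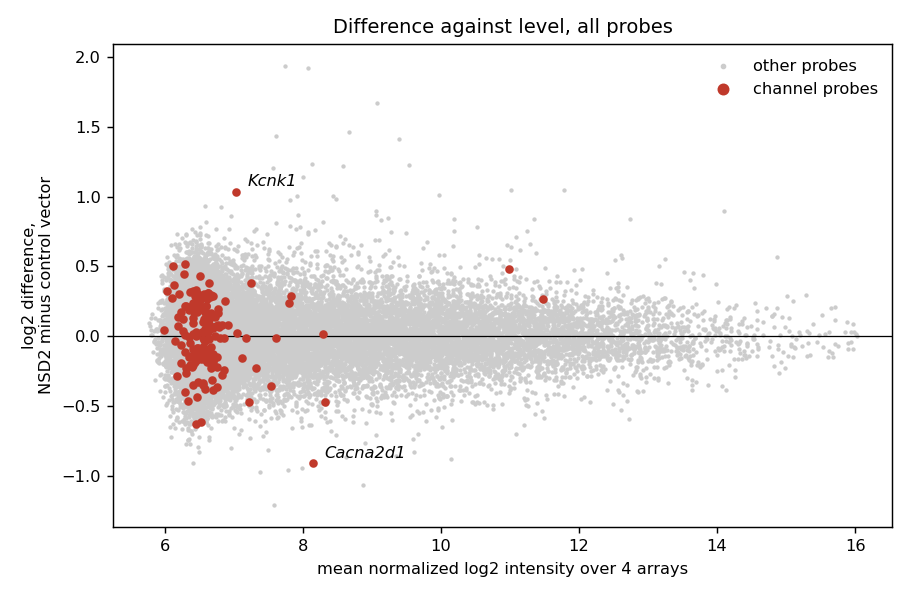
Log2 intensity difference, NSD2 minus control vector (vertical axis), against the mean normalized log2 intensity over 4 arrays (horizontal axis) for all 25697 probes (grey) and the 164 channel probes (red). Most channel probes lie at the dim end, and the labelled points are Kcnk1 (1.03, not above background with control vector) and Cacna2d1 (-0.91).

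Kcnk1 was above background with NSD2 only. It encodes a 2-pore-domain potassium channel subunit (TWIK) that carries background potassium current. Its deposited signal was 216 and 281 on the NSD2 arrays, above the background thresholds of 178 and 182. On the control vector arrays it was 147 and 190, below the thresholds of 185 and 219. The normalized log2 intensity was 7.52 and 7.60 with NSD2 and 6.41 and 6.63 with control vector, so the groups did not overlap. Kcnk1 is named for being above background in 1 group only, and that rule favours such a separation. The fitted difference was 1.03 ± 0.20 (SE, 95% interval 0.60 to 1.47, limma adjusted p = 0.239), which did not pass. It takes the control vector signals at face value. Because they were not above background, the NSD2 level is given as at least 1.49-fold higher. This bound sets the NSD2 mean against the dimmest value above background on each control vector array, which exceeded the value of Kcnk1 there. The bound carries no error estimate. Kcnk1 was the 1 channel probe above background on both arrays of one group and on neither of the other, a pattern of 0.942% of all probes. The fitted difference was 1.71 with a smaller background offset (1 in place of 50, adjusted p = 0.9996) and 2.39 in the authors' processed values (adjusted p = 0.920).

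Of the potassium channels of the same 2-pore-domain family, 2 more genes were above background on all 4 arrays. Kcnk5, a channel opened by alkaline pH and linked to cell volume control, had log2 intensities of 7.91 and 8.04 with NSD2 and 7.54 and 7.83 with control vector. These groups did not overlap, but they lay close together, and the difference of 0.28 ± 0.21 (95% interval -0.16 to 0.73) did not pass. Kcnk2, a channel gated by stretch and lipids, had 7.81 and 8.03 with NSD2 and 7.47 and 7.89 with control vector, and these groups overlapped. Its difference was 0.24 ± 0.22 (95% interval -0.22 to 0.70). Kcnk6, also of this family, was above background on 1 array and differed by -0.37 ± 0.21. The adjusted p was 0.9996 for these 3 genes.

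Among voltage-gated potassium channels only Kcnh2, which encodes the ERG channel of the rapid delayed rectifier current in heart, was above background on all 4 arrays. Its probe with the highest mean had log2 intensities of 8.092 and 8.088 with NSD2 and of 8.59 and 8.53 with control vector. The groups did not overlap, and the difference was -0.47 ± 0.20 (95% interval -0.90 to -0.05, limma unadjusted p = 0.0314, adjusted p = 0.9996). Another Kcnh2 probe, also above background on all 4 arrays, had 8.53 and 8.07 with NSD2 and 8.69 and 7.89 with control vector. It overlapped between the groups and differed by 0.01 ± 0.26, so the probes of this gene did not show 1 difference. The third Kcnh2 probe, below background on all 4 arrays, differed by -0.38.

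Of the auxiliary potassium channel subunit genes, Kcnab1 and Kcnmb4 were above background on all 4 arrays. Kcnab1 encodes a cytoplasmic beta subunit that speeds inactivation of voltage-gated potassium channels, and 3 of its 3 probes were above background on all 4 arrays. The probe with the highest mean had log2 intensities of 11.46 and 11.77 with NSD2 and 11.15 and 11.55 with control vector, which overlap. It differed by 0.27 ± 0.22 (95% interval -0.20 to 0.73). The second Kcnab1 probe had 11.29 and 11.17 with NSD2 and 10.81 and 10.68 with control vector. These groups did not overlap, and the difference was 0.48 ± 0.20 (limma unadjusted p = 0.0306, adjusted p = 0.9996). The third Kcnab1 probe had 7.92 and 7.31 with NSD2 and 8.01 and 7.24 with control vector and differed by -0.01 ± 0.27. The sign therefore was not shared by the 3 probes, and none of them passed.

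Kcnmb4, a beta subunit of the large-conductance calcium-activated potassium channel, had log2 intensities of 7.15 and 7.25 with NSD2 and 7.49 and 7.37 with control vector. Its groups did not overlap, but the difference of -0.23 ± 0.20 (95% interval -0.66 to 0.20) did not pass. Another Kcnmb4 probe, above background on 1 array, differed by 0.08, the opposite sign. The third Kcnmb4 probe, below background on all 4 arrays, differed by 0.28, also the opposite sign. Kcnab2, the relative of Kcnab1, was above background on 3 arrays and differed by -0.16 ± 0.20. Kcnu1, a potassium channel known from sperm, was above background on 3 arrays as well, with log2 intensities of 7.18 and 7.71 with NSD2 and 6.79 and 7.34 with control vector. Its groups overlapped, and it differed by 0.38 ± 0.24. Kcnab2, Kcnu1 and Kcnk6 were picked after their values were seen.

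Among the channel genes above background on all 4 arrays the largest difference was that of Cacna2d1, which encodes the alpha-2/delta subunit that brings voltage-gated calcium channels to the membrane and binds gabapentin. Its 1 probe was above background on all 4 arrays, with signals of 253 and 272 on the NSD2 arrays and 470 and 439 on the control vector arrays. The log2 intensity was 7.85 and 7.55 with NSD2 and 8.95 and 8.27 with control vector. Both NSD2 arrays lay below both control vector arrays, and the control vector arrays stood further apart from each other than the NSD2 arrays did. The difference was -0.91 ± 0.24 (95% interval -1.42 to -0.40), a level 1.88-fold higher in control vector cells, and it did not pass (limma unadjusted p = 0.0016, adjusted p = 0.9996). Its size rested on control vector 1: without that array the difference was -0.57, and without control vector 2 it was -1.25. Such fits leave 1 control vector array, so they cannot measure the spread within that group.

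Of the pore-forming calcium channels, both genes above background on all 4 arrays were low-voltage-activated T-type channels, Cacna1g and Cacna1h. Cacna1g had log2 intensities of 7.44 and 7.26 with NSD2 and 7.53 and 7.90 with control vector. The NSD2 arrays were lower, and the difference was -0.36 ± 0.21 (95% interval -0.81 to 0.09). A second Cacna1g probe, above background on 3 arrays, had 6.79 and 7.17 with NSD2 and 7.47 and 7.44 with control vector and differed by -0.47 ± 0.21 (limma unadjusted p = 0.0396). The third Cacna1g probe was below background and differed by -0.0036. Cacna1h had 7.11 and 7.22 with NSD2 and 7.16 and 7.20 with control vector, which overlap, and differed by -0.01 ± 0.20 (95% interval -0.44 to 0.42). The sign for Cacna1h turned with cyclic loess (0.0017) and with median scaling (0.02). The adjusted p of all these probes was 0.9996. Cacnb4, a beta subunit gene, was above background on 2 arrays with its best probe and differed by 0.02 ± 0.23, and it too was picked after its values were seen.

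**Figure D3:**
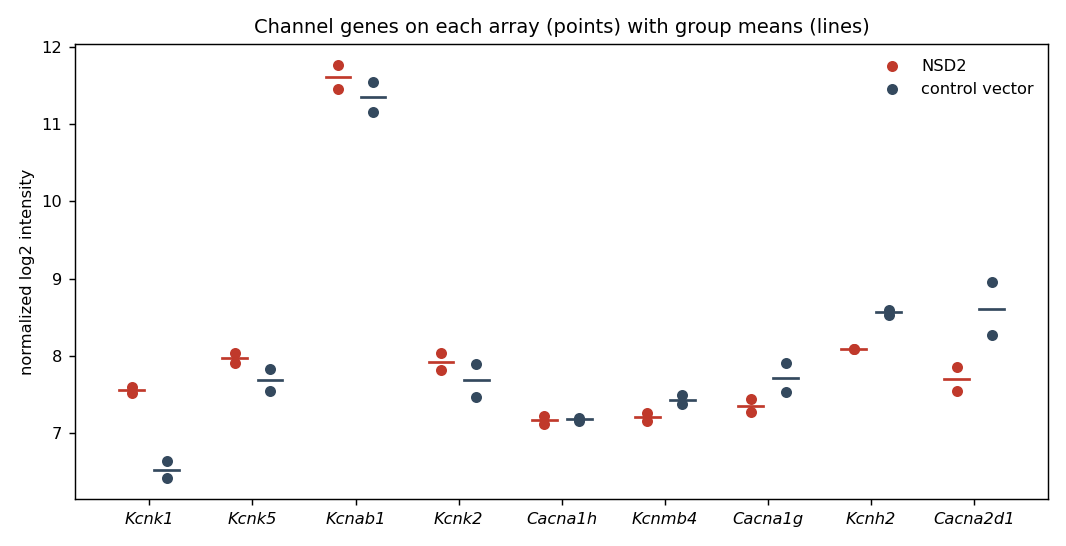
Normalized log2 intensity (vertical axis) of Kcnk1 and of the 8 channel genes above background on all 4 arrays, each given by 1 probe, with a point per array, a line at each group mean, and NSD2 in red and control vector in blue-grey. The group means stand furthest apart for Kcnk1, whose control vector points are below background, and for Cacna2d1. Levels of different probes cannot be set against each other.

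Read together, the 8 channel genes above background on all 4 arrays had higher means with NSD2 in 3 cases (Kcnk5, Kcnab1 and Kcnk2) and lower means in 5 (Cacna2d1, Kcnh2, Cacna1g, Kcnmb4 and Cacna1h). Their median difference was -0.12, beside -0.0037 over the 6902 genes above background on all 4 arrays, of which 3395 had higher means. Of the 11 channel probes above background on all 4 arrays 5 had higher means, beside 49.2% of all such probes. The groups did not overlap for 6 of the 11 (54.5%), with 2 higher and 4 lower. The same held for 30.4% of all probes above background on all 4 arrays, 14.8% higher and 15.6% lower. Over all 164 channel probes the groups did not overlap for 69 (42.1%), beside 31.9% of all probes. Most of these 164 lay at background, and the part of this in the count was not tested.

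**Figure D4:**
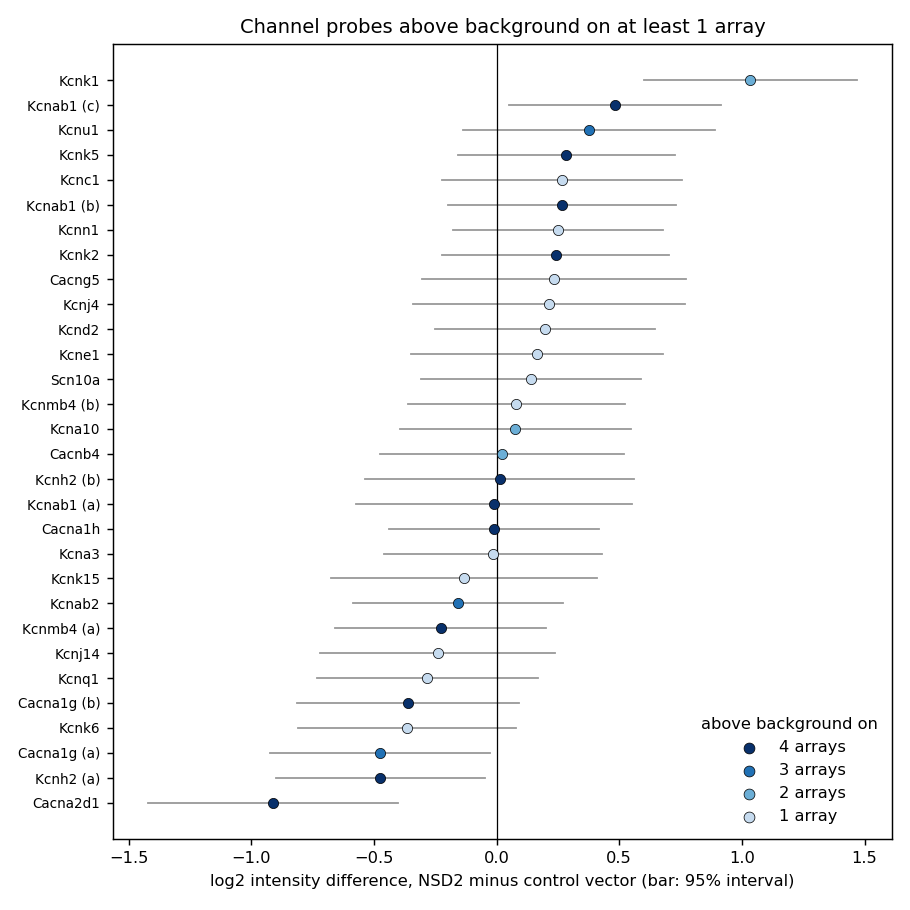
Log2 intensity difference, NSD2 minus control vector (horizontal axis), with its 95% interval for the 30 channel probes above background on at least 1 array, letters telling probes of 1 gene apart and darker points standing for more arrays above background. The intervals of Kcnk1, of 1 Kcnab1 probe, of 1 Cacna1g probe, of 1 Kcnh2 probe and of Cacna2d1 leave out 0 before adjustment, and none of the 30 passed after it.

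Among the dim channels a few differences were larger than those of most measured genes, but none reached those of Kcnk1 or Cacna2d1. Kcne2, a small beta subunit of potassium channels, differed by -0.63 ± 0.20, and 1 probe of Kcnn2, a small-conductance calcium-activated channel, by -0.61 ± 0.20. The Kcnn2 probe with the higher mean differed by 0.12 ± 0.23, the opposite sign. Scn3b, a sodium channel beta subunit gene, differed by 0.51 ± 0.21. These probes were above background on no array, so no fold is given for them, and they were picked after their values were seen. The 134 channel probes above background on no array had a median difference of 0.0021, with values from -0.63 to 0.51. All 12396 probes above background on no array spanned -0.91 to 0.77, so differences of this size occurred among probes with no measured level.

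The start regions of Kcnk1 and Cacna2d1 are shown because Kcnk1 was above background with NSD2 only, Cacna2d1 had the largest difference among channel genes measured on all 4 arrays, and NSD2 acts on chromatin. They are RefSeq windows (GRCm38.p6), each from 250 bases before to 50 after a transcript start. Capitals mark the GC box GGGCGG on either strand, overlapping matches counted. The window of Kcnk1 is chr8:125994852-125995151 (plus strand), that of Cacna2d1 chr5:15934441-15934740 (plus strand).
Kcnk1: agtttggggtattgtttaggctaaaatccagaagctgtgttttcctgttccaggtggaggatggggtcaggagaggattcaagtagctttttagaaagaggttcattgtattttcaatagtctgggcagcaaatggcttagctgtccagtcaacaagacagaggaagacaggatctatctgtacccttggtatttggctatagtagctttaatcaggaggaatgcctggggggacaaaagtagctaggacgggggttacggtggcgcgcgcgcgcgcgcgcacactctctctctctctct
Cacna2d1: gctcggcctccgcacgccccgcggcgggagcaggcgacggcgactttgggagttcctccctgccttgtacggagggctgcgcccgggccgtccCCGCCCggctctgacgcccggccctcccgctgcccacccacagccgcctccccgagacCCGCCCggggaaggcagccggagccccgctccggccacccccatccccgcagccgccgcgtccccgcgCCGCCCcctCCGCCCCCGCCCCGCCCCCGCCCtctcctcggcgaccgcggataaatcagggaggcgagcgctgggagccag
The Cacna2d1 window held 42 CpG dinucleotides and 7 GC boxes at a GC content of 80.0%. The Kcnk1 window held 10 CpG dinucleotides, most of them in 1 alternating CG run, and 0 GC boxes at a GC content of 49.0%. The start in this Kcnk1 window lies 1447 bases inside the gene as RefSeq gives it, and that of Cacna2d1 427 bases inside, so other starts of these genes are not shown. A GC box was present in 47.0% of the 115 windows found for 84 of the 108 channel genes, beside 35.7% of all 32851 windows, and the TATA box TATAAA in 4.35%, beside 13.6%. These are descriptions of sequence, and the array data do not measure what binds there.

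Other genes of ion handling were taken from 5 lists chosen by role. Of their 116 measured genes 0 passed over all probes (limma, adjusted p under 0.05), beside 0.0156% of all probes. At an unadjusted p under 0.05 there were 6 (5.17%), beside 3.91% of all probes, and 3 of these 6 were above background on all 4 arrays. For the counts of each list that follow, 41.6% of all 16593 named genes were above background on all 4 arrays. Calcium store and entry genes were above background on all 4 arrays in 8 of 20 measured genes, 5 with higher and 3 with lower means (median difference 0.06). Stim1, the calcium sensor of the endoplasmic reticulum, had log2 intensities of 8.63 and 8.61 with NSD2 and 8.22 and 8.08 with control vector, without overlap. It differed by 0.47 ± 0.20 (limma unadjusted p = 0.0343, adjusted p = 0.9996). Of the plasma membrane pores that the STIM sensors open, Orai1 differed by 0.23 ± 0.21 and Orai3 by -0.33 ± 0.21. Calcium-dependent signalling genes were above background in 15 of 21, 7 higher and 8 lower (median -0.02). Their largest differences were those of the calcineurin-regulated transcription factor genes Nfatc1 (-0.53 ± 0.21) and Nfatc3 (0.39 ± 0.22), in opposite directions.

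Chloride and volume channel genes were above background on all 4 arrays in 7 of 22, 3 higher and 4 lower (median -0.0049). Clic1, a chloride intracellular channel gene, had 9.04 and 9.56 with NSD2 and 9.70 and 10.03 with control vector, a difference of -0.56 ± 0.23. The volume-regulated anion channel subunit gene Lrrc8c differed by 0.40 ± 0.20. Of the other cation channels 7 of 40 were above background, 5 higher and 2 lower (median 0.05). Tpcn1, a channel of endolysosomes, differed by 0.37 ± 0.20 and the ATP-gated channel gene P2rx4 by -0.24 ± 0.21. Of sodium pump and transporter genes 5 of 13 were above background, 2 higher and 3 lower (median -0.09), with Atp1b1, a sodium pump beta subunit, at 0.37 ± 0.22. Each of these genes had an adjusted p of 0.9996.

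Markers of other cell types were set beside these values, and none of them passed. The summed intensities of the groups did not overlap for 3 of the 8 lists, beside 31.9% of all single probes. The summed intensity of 9 skeletal muscle markers was 10.60 and 10.41 on the log2 scale with NSD2 and 10.32 and 10.15 with control vector. Of these markers Des, the desmin gene, differed by 0.86 ± 0.23. Ryr1, another of them and picked after its values were seen, differed by -0.40 ± 0.20, the opposite sign. It was above background with control vector only. The sum of 7 endothelial markers was 10.59 and 10.26 with NSD2 and 10.94 and 10.76 with control vector, and Flt1, a VEGF receptor gene, differed by -0.65 ± 0.21. The sum of 6 glia markers was 10.71 and 10.50 with NSD2 and 10.42 and 10.44 with control vector. The sums of 13 neuron markers, 10.58 and 10.69 with NSD2 and 10.50 and 10.84 with control vector, overlapped. Each of these 4 lists had 1 marker above background on all 4 arrays, and Ckm, Cdh5 and Snap25 were below it on all 4 arrays. The part of these markers in the differences of Kcnk1 and Cacna2d1 was not tested. In bulk RNA, fewer cells of a type and less RNA per cell cannot be told apart.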

How the data were processed

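Total RNA of the 4 arrays was amplified and biotin-labelled, per the labels' protocols. The deposited main table holds an average bead signal per probe, an intensity on a linear scale, per the file headers, with no detection p-values or control probes. The authors' processed intensity values were used only as an alternative, and no source used here says how they were made. They kept the order of the signals on each array (Spearman correlation across probes 1) and some are negative. Groups and replicate numbers came from sample titles. Probe names came from the platform annotation, in which 23978 probes have 1 symbol, 0 several and 1719 none, and all 108 channel gene IDs were found in RefSeq (GRCm38.p6).

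Signals were corrected with normexp (offset 50), quantile-normalized over 25697 probes and fitted with lmFit and eBayes (limma 3.58.1, R 4.3.3) on the log2 scale, two-sided, all 4 arrays, no covariate, with Benjamini-Hochberg adjustment over every probe and a threshold of 0.05. The offset compresses differences of dim probes. The background threshold on each array was the upper 5% point of the lower side of the log2 signal distribution mirrored about its mode. The probe with the highest mean stood for a gene with several. The fit was run on simulated data to check that known changes were estimated at their size. Those simulated arrays varied independently of each other, and no power for the real arrays is taken from them. The rule for named genes took those above background on all 4 arrays or in 1 group only, with up to 3 members of each other list. The other channel genes named (Kcnk6, Kcnab2, Kcnu1, Cacnb4, Scn10a, Kcne2, Kcnn2, Scn3b, Kcnma1, Kcnn4, Kcnj2 and Cacna1c) fall outside it. Members, lists and rules were chosen with earlier results of these data known. Alternatives were other offsets, normalizations, moderation and background points, filters on dim probes, the authors' values, a replicate term and leaving out each array. Intensities carry no read depth, and the number of arrays limits the precision.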

Additional observations from a re-analysis of the deposited data

How the results depend on the processing

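In the alternatives that kept all 4 arrays, no channel probe passed the threshold (limma), except with the replicate number as a block. With offsets of 1 or 16, median scaling, the authors' values, or only probes above background on all 4 arrays, 0 fitted probes passed. There the channel count could not differ from 0. In the rest of these without the block, 1 to 13 fitted probes passed. With the block the count was 2 channel probes, Kcnk1 (adjusted p = 0.0011) and Cacna2d1 (adjusted p = 0.0087). That fit called 48 of all 25697 probes (0.187%), against 4 without the block. Same-numbered arrays deviated together (correlation of deviations across probes 0.24 over all probes and 0.52 over those above background on all 4 arrays). With 2 pairs and no label that ties the numbers to a shared batch, this is a hint from the data, not the design. No count of passing probes is given for fits that leave out 1 array. The difference of Cacna2d1 was -0.57 without control vector 1 and -1.25 without control vector 2. A fit that leaves 1 array in a group has no spread within that group. In both fits without a control vector array each gene named by the rule had the same standard error (0.29). The genes' own spread was therefore not used there.

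The count of 11 channel probes above background on all 4 arrays was 9 with the upper 1% point of background and 12 with the upper 10% point. The number of those genes with a higher mean under NSD2 stayed between 2 and 4, and their median difference between -0.20 and -0.01, in 18 alternatives each. Kcnk1 kept its direction in 15 alternatives (0.69 to 2.39, adjusted p 0.0011 to 0.9998) and Cacna2d1 in 16 (-1.25 to -0.57, adjusted p 0.0087 to 1). Cacna1h turned its sign with cyclic loess (0.0017), median scaling (0.020), without NSD2 1 (0.042) and without control vector 2 (0.0072), its range without 1 array being -0.066 to 0.042. With the probe of largest variance, another probe, Kcnab1 (-0.011), Kcnh2 (0.013) and Kcnmb4 (0.28) turned theirs. The directions of Cacna1g, Kcnk2 and Kcnk5 held in 16 alternatives each, but their sizes did not. Without control vector 1 the differences were 0.029 for Kcnk2, 0.14 for Kcnk5 and 0.069 for Kcnab1, and without control vector 2 they were 0.45, 0.43 and 0.46. Cacna1g stood at -0.55 without control vector 1 and -0.18 without control vector 2. The adjusted p of each was 0.9999. The median over all fitted probes moved by less than 0.1 under each scaling. Over probes above background on all 4 arrays Kcnk1 had no value.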
